A study of Mus musculus with 8 samples.

Results

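The T-lymphoblastic lymphoma of mouse 12 (M12) and the 4 secondary lymphomas derived from it were compared, array by array, to ask which DNA losses and gains of the parent tumour were kept, which were deeper and which were new in the descendants. The members were taken from the sample labels: M12 from a neck lymph node, labelled as a primary transplant, and M12.49 (pancreas), M12.50 (neck lymph node), M12.52 (pancreas) and M12.53 (pancreas), labelled as secondary tumours of mouse 12. They are 5 of the 8 samples of the series. The other arrays, M7 and M9 (primary lymphomas from spleen) and M10 (a primary myeloid hyperplasia from bone marrow), enter only as points of comparison. Every one of the 8 samples carried SEC31A-JAK2, a gene fusion that brings in the JAK2 tyrosine kinase, on a Balb/c background after bone marrow transplantation. The labels give no promoter, no age, no treatment, no transplant interval and no share of tumour cells. Each DNA was labelled with Cy5 and hybridised once, together with Cy3-labelled wild-type Balb/c DNA as the normal reference, on an Agilent comparative genomic hybridisation array with 221455 autosomal probes at a median spacing of 7.82 kb.

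Comparative genomic hybridisation reads copy number as the ratio of tumour to normal DNA at each probe. A log2 ratio of 0 stands for equal amounts, and losing 1 of the normal pair of copies throughout a pure tumour gives −1. Normal cells in the sample, or tumour cells without the change, draw the value towards 0, and these cannot be told apart from a change in part of the tumour. In developing T cells the T-cell receptor genes are assembled by V(D)J recombination, which cuts out the DNA between the joined gene segments. The joins differ from cell to cell, so the extent of such deletions can mark the descendants of a single T cell. In RefSeq (GRCm38.p6) the alpha and delta chain segments lie on chromosome 14, the beta segments on chromosome 6, the gamma segments on chromosome 13 and the immunoglobulin heavy chain segments on chromosome 12. Bcl11b, a transcription factor required for T-cell commitment, also lies on chromosome 12. Array positions are on build mm9 and carry no gene names, so whether a measured interval falls within one of these loci was not tested.

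The 5 arrays differed in quality. Neighbouring autosomal probes scattered with a noise of 0.252 (SD) for M12, 0.252 for M12.49, 0.224 for M12.50, 0.434 for M12.52 and 0.268 for M12.53. The median net Cy3 signal was 347 for M12 and 68 to 130.5 in the secondary arrays. The comparison array M7 was poorer, with a noise of 0.474 and a reference well above background at 55.18% of the autosomal probes. M12 lay on a slide of its own and had a scan date of its own (called scan below). It was scanned at a resolution of 2 micron and the secondary arrays at 3 micron. Slide, scan, resolution and tumour stage thus cannot be told apart in any difference from M12. Because the reference dye of M12 also behaved differently in places, each region is given as the ratio, as Cy5 alone and as Cy3 alone. The single-dye values are log2 levels centred on the autosomal median of the array, minus the same in M10 and centred again. M10 had the same scan date as M12.50 and M12.53, and M9 the same as M12.49 and M12.52. A Cy5 or Cy3 difference from M12 is taken between the levels before M10 is subtracted, so the second centring sets it slightly apart from the gap between values relative to M10. Errors of single arrays are standard errors over probes (SE), since no tumour was hybridised again. Spreads over the secondary tumours are standard deviations (SD, n = 4). By their names the secondary tumours came from 1 mouse each, but all descend from M12, so they are related samples. A comparison of 1 array with 4 has 5 splits, and its exact permutation p cannot go below 0.2.

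Losses on chromosomes 6, 12 and 14 were present in M12 and in all 4 secondary tumours, with ends that lay at the same probe or a few probes apart. In M12, 0.134% of the autosomal probes lay in called losses and 0.184% in called gains. Called losses held 0.138% of the probes in M12.49, 0.13% for M12.50 and 0.129% for both M12.52 and M12.53. Called gains held 0.0624%, 0%, 0.062% and 0.18% in the same order. Calls needed 5 probes or more and a mean log2 ratio at least 0.25 away from 0. M12 had 7 calls, and 3 of them were neighbouring pieces of the chromosome 14 loss. The pieces on chromosomes 6, 12 and 14 were recovered in all 4 secondary arrays, which gives 5 of 7 calls (71.4%) in 3 arrays and, with the chromosome 10 gain, 6 of 7 (85.7%) in M12.53. The mean was 75% ± 7.14 (SD, n = 4), and 41.7% of the 3 calls that M12 had with the normexp signals, an alternative background correction that adds an offset of 50 to both dyes. No whole autosome departed from the rest. Over the 5 arrays the mean log2 ratio of an autosome lay between −0.062 and 0.037.

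The chromosome 6 loss, chr6:41018389-41489670 (mm9, 60 probes, 471 kb), began and ended at the same probes on all 5 arrays. Its mean ratio was −0.63 ± 0.06 (SE) for M12. The secondary arrays measured −0.92 ± 0.08 for M12.49, −0.92 ± 0.08 for M12.50, −1.07 ± 0.09 for M12.52 and −0.99 ± 0.06 for M12.53. All 4 secondary values lay below M12 and did not overlap it, and the tumour DNA amounted to 64.4% of the reference in M12 and 47.7% to 52.9% in the secondary tumours. The difference, secondary minus M12, was −0.34 ± 0.07 (SD, n = 4; exact permutation p = 0.2, two-sided, the smallest the design allows), and −0.13 with the normexp signals. Outside the lineage the ratio was −0.46 ± 0.09 (SE) for M7, −0.30 ± 0.04 for M9 and 0.06 ± 0.04 for M10. By ratio, M7 and M9 were thus also below 0 here, with means above those of the lineage. The M7 reference was well above background at 50% of these probes, so its ratio is not exact. By Cy5 relative to M10, M7 measured −0.83 ± 0.15, near the −0.98 ± 0.06 of M12, and M9 −0.33 ± 0.05.

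The tumour dye did not show this difference. Cy5 relative to M10 was −0.98 ± 0.06 (SE) for M12, −0.99 ± 0.08 for M12.49, −0.99 ± 0.07 for M12.50, −1.13 ± 0.07 for M12.52 and −1.04 ± 0.08 for M12.53. M12 lay within about 1 SE of 3 of the 4 secondary arrays, and the Cy5 difference from M12 was −0.02 ± 0.06 (SD, n = 4; exact permutation p = 1, two-sided). Cy3, the reference, was −0.26 ± 0.04 (SE) for M12 and −0.02 to 0.01 in the secondary arrays. The Cy3 difference, 0.33 ± 0.03 (SD, n = 4; exact permutation p = 0.2, two-sided), was close in size to the ratio difference and of the opposite sign. The Cy5 difference was smaller than the spread between the secondary arrays.

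**Figure D1:**
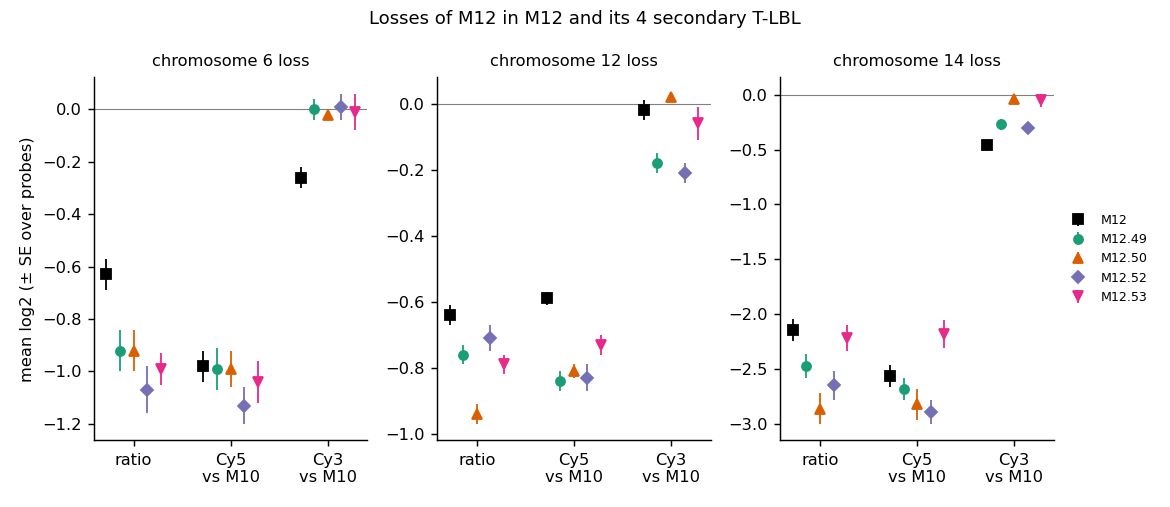
Mean log2 value (vertical axis, ± SE over probes) of the 3 kept losses in M12 and the 4 secondary tumours, as the Cy5/Cy3 ratio and as each dye alone relative to M10. On chromosome 6 the secondary ratios (−0.92 to −1.07) lie below M12 (−0.63), while the Cy5 levels overlap (−0.98 for M12, −0.99 to −1.13) and the Cy3 of M12 stands apart at −0.26.

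Along the chromosome 6 loss, cut into 12 runs of 5 probes, the ratio was lower than in M12 in 11 runs for M12.53 and in all 12 runs for the other secondary arrays. By Cy5 the secondary array was lower in 4, 7, 9 and 8 of the 12 runs, taking the secondary arrays by mouse number. The first 5 probes of the loss measured −0.85 for M12 and −0.96 to −1.10 in the secondary arrays, and the 5 probes before them −0.13 for M12 and −0.25 to 0.03. The step at the edge was thus complete between neighbouring runs on every array. The loss was not even. Its last 5 probes, from 41464736 to 41489670, were the lowest run on each array, at −1.12 for M12 and −1.75 to −1.55 in the secondary arrays. By Cy5 they measured −1.49 for M12 and −1.76 to −1.68 in the secondary arrays. Over the 5 arrays 84% of their Cy5 spots were well above background. Limma, fitted to windows of 10 probes, called 0 of the 7 windows that overlap this loss as different from M12. An unadjusted p under 0.05 was found for 5 of them by ratio and 0 by Cy5. Over all 22135 windows the counts were 642 by ratio and 2932 by Cy5. In simulated data this fit recovered 0% of windows at a difference of 0.25, 16% at 0.5 and 78% at 1. It could thus miss differences of the size seen in the kept losses, so their 0 calls do not show that M12 was equal.

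**Figure D2:**
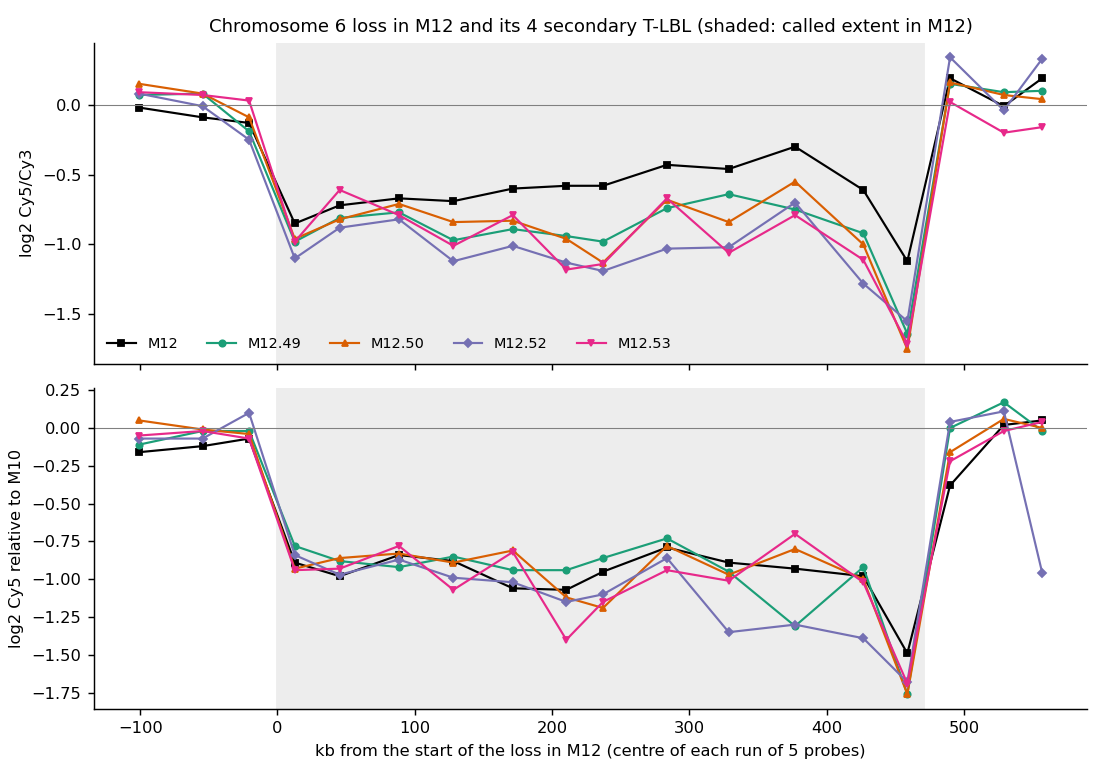
Mean over consecutive runs of 5 probes (points) along the chromosome 6 loss against distance from its start in M12, for the ratio (upper panel) and Cy5 relative to M10 (lower panel). The M12 line lies above the secondary lines in nearly every run of the shaded loss in the upper panel, and among them in the lower panel.

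The chromosome 12 loss, chr12:107329523-109293982 (mm9, 103 probes, 1964 kb), had the same ends on M12, M12.49, M12.50 and M12.53. In M12.52, the noisiest of the 5, the call began 5 probes earlier, at 107296026. The ratio was −0.64 ± 0.03 (SE) for M12, −0.76 ± 0.03 for M12.49, −0.94 ± 0.03 for M12.50, −0.71 ± 0.04 for M12.52 and −0.79 ± 0.03 for M12.53. The secondary values lay below M12 without overlap, with M12.50 lowest, and differed from it by −0.15 ± 0.10 (SD, n = 4; exact permutation p = 0.4, two-sided). None of the 3 arrays outside the lineage had a loss here, with ratios of 0.07 ± 0.05 (SE) for M7, −0.00 ± 0.02 for M9 and −0.10 ± 0.03 for M10. The M7 reference was well above background at 61.62% of these probes, and its Cy5 relative to M10 was 0.01 ± 0.09.

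On chromosome 12 the Cy5 levels did differ in the direction of the ratio. Cy5 relative to M10 was −0.59 ± 0.02 (SE) for M12, −0.84 ± 0.03 for M12.49, −0.81 ± 0.02 for M12.50, −0.83 ± 0.04 for M12.52 and −0.73 ± 0.03 for M12.53. The difference from M12 was −0.18 ± 0.04 (SD, n = 4; exact permutation p = 0.2, two-sided), and the secondary array was lower in 9 or 10 of 10 runs of 10 probes. The probes around the loss were shifted the same way. Over 200 flanking probes the ratio was 0.08 for M12 and −0.12 to 0.02 in the secondary arrays. With the flanks subtracted the difference was −0.03 ± 0.04 by ratio (exact permutation p = 0.6, two-sided, n = 4) and −0.07 ± 0.03 by Cy5 (exact permutation p = 0.2, two-sided, n = 4). Most of the Cy5 difference was thus shared with the neighbouring DNA. Cy3 in the loss was −0.02 for M12, −0.18 for M12.49 and −0.21 for M12.52, with M9 of their scan at −0.19. It was 0.02 for M12.50 and −0.06 for M12.53. Limma called 0 of the 11 windows of this loss, with 1 at an unadjusted p under 0.05 by ratio and 4 by Cy5.

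The chromosome 14 loss was the deepest of the kept losses and had the least regular shape. It was called from chr14:53415714-54818591 (mm9, 1403 kb) in M12, in 3 pieces. The ratio was −2.14 ± 0.10 (SE) for M12 over 115 probes, −2.47 ± 0.11 for M12.49, −2.86 ± 0.14 for M12.50, −2.65 ± 0.13 for M12.52 and −2.22 ± 0.12 for M12.53 over 116 probes. All 4 secondary values were below M12, with M12.53 within 1 SE of it. These levels lie far below −1, the value that loss of 1 copy would give. Outside the lineage the ratio was −0.38 ± 0.07 for M7, −0.29 ± 0.05 for M9 and −0.07 ± 0.03 for M10. The M7 reference was well above background at 52.25% of these probes, and its Cy5 relative to M10 was −0.33 ± 0.12. Tumour DNA was 22.7% of the reference in M12 and 13.8% to 21.5% in the secondary tumours. The Cy5 signal was well above background at 81.2% of the probes in M12, 40.5% for M12.49, 69.8% for M12.50, 21.6% for M12.52 and 75% for M12.53, so the depth is not exact. With dim probes raised to the lowest signal well above background, the reference exceeded the tumour at least 3.99-fold in M12, 3.55-fold in M12.49, 5.91-fold in M12.50, 3.08-fold in M12.52 and 3.89-fold in M12.53.

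The chromosome 14 difference from M12 was −0.40 ± 0.27 by ratio (SD, n = 4; exact permutation p = 0.4, two-sided), and −0.04 with the normexp signals. By Cy5 alone it was −0.04 ± 0.31 (SD, n = 4; exact permutation p = 1, two-sided). The Cy5 differences were −0.08 for M12.49, −0.23 for M12.50, −0.26 for M12.52 and 0.41 for M12.53, so the secondary tumours lay on both sides of their parent. Cy3 was −0.46 ± 0.05 (SE) for M12. It was −0.27 for M12.49 and −0.30 for M12.52, which shared a scan with M9 (−0.33). It was −0.04 for M12.50 and −0.05 for M12.53, which shared a scan with M10. Limma called 0 of the 12 windows of this loss, with 3 at an unadjusted p under 0.05 by ratio and 0 by Cy5.

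The outer edges on chromosome 14 differed by up to 5 probes. Upstream, the call began at 53415714 in M12 and M12.49, at 53397427 in M12.52, at 53344285 in M12.50 and at 53255476 in M12.53. The 5 probes of this edge, from 53255476 to 53397486, averaged −0.41 for M12, −0.74 for M12.49, −0.71 for M12.50, −0.41 for M12.52 and −1.11 for M12.53. The mean of this run was thus intermediate in all 5 tumours, between the 5 probes before (−0.22 to 0.08) and the 5 probes after (−2.45 to −1.78). The called starts of all 5 lay within this run or at the next probe. A mean over 5 probes cannot tell a gradual slope from a sharp step inside the run. By Cy5 the same edge measured −0.50 for M12 and −1.06 to −0.83 in the secondary tumours. Downstream, the call ended at 54818591 in M12, at 54837072 in M12.53 and at 54827341 in the other secondary tumours, which is 1 or 2 probes later.

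Within the chromosome 14 loss the depth varied along the DNA, and much of this relief was shared by the 5 arrays. A run of 5 probes 422 kb into the loss, from 53714075 to 53961747, returned to between −1.07 and 0.45, with 36% of its Cy5 spots above background over the 5 arrays, so no depth can be read there. The 5 probes centred 714 kb into the loss measured −1.14 for M12, −1.46 for M12.49, −1.35 for M12.50, −1.52 for M12.52 and −0.72 for M12.53, with 96% of the Cy5 spots well above background. The 5 probes centred 1382 kb into the loss measured −3.30, −3.23, −4.15, −3.94 and −3.22 in the same order, with 32% above background. The run at 714 kb was thus shallower than the distal one on each of the 5 arrays. Other runs of the middle were less well measured, with 52% of the Cy5 spots above background at 610 kb, where the ratio was −2.42 to −1.72, and 44% at 885 kb.

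**Figure D3:**
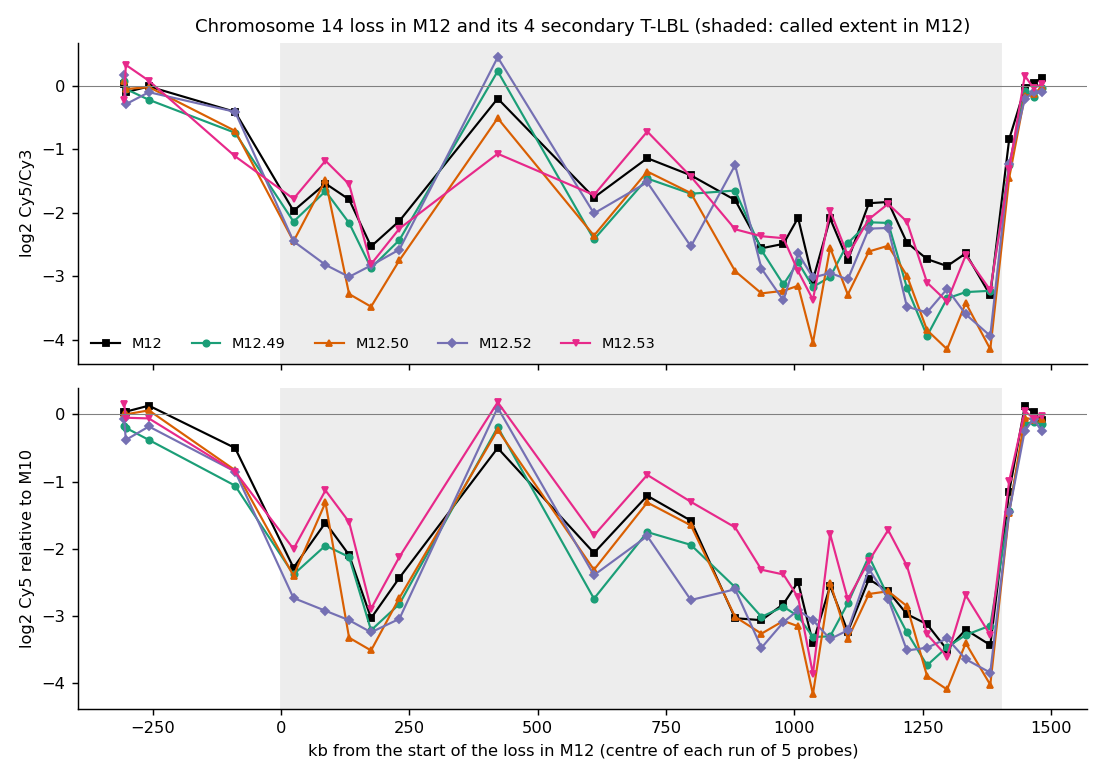
Mean over consecutive runs of 5 probes along the chromosome 14 loss against distance from its start in M12, for the ratio (upper panel) and Cy5 relative to M10 (lower panel). The 5 tumours share an intermediate run at the left edge (−1.11 to −0.41 by ratio), a shallow run near 714 kb and a deep right side. M12.52 and M12.50 dip below the others near 87 and 133 kb.

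Short stretches inside the chromosome 14 loss were deeper in a secondary tumour than in M12 by both ratio and Cy5. They were found by segmenting the probe-by-probe ratio difference of each secondary array from M12, and the other secondary tumours could be as low. In M12.52, chr14:53464836-53585398 (13 probes, 121 kb) measured −3.04 ± 0.26 (SE) against −1.73 ± 0.16 for M12. The other secondary arrays measured −2.11 ± 0.23 for M12.49, −2.49 ± 0.38 for M12.50 and −1.52 ± 0.21 for M12.53. By Cy5, M12.52 was at −3.14 ± 0.17 and M12 at −1.94 ± 0.18. At these probes 100% of the Cy5 spots of M12 and 38.5% of those of M12.52 were well above background.

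In M12.50 an overlapping stretch, chr14:53541189-53611748 (9 probes, 71 kb), measured −3.56 ± 0.40 (SE) against −2.20 ± 0.27 for M12. The others were −2.58 ± 0.23 for M12.49, −2.84 ± 0.34 for M12.52 and −2.20 ± 0.39 for M12.53. By Cy5 it was −3.59 ± 0.35 for M12.50 and −2.63 ± 0.38 for M12, with 77.8% and 88.9% of the Cy5 spots well above background. A distal stretch, chr14:54358152-54837072, was at −3.30 ± 0.17 for M12.50 and −2.47 ± 0.12 for M12 by ratio, but at −3.28 ± 0.16 and −2.95 ± 0.12 by Cy5. The other secondary ratios there were −2.93 ± 0.12 for M12.49, −3.05 ± 0.14 for M12.52 and −2.63 ± 0.15 for M12.53, all below M12. Another, chr14:54635929-54741487, was at −3.48 ± 0.20 for M12.49 and −2.56 ± 0.22 for M12 by ratio, and at −3.47 ± 0.16 and −3.12 ± 0.25 by Cy5. There M12.50 was as low, at −3.59 ± 0.33 by ratio and −3.58 ± 0.34 by Cy5, and M12.52 measured −3.33 ± 0.17 and −3.37 ± 0.15, so the stretch did not set M12.49 apart. With the normexp signals M12.49 was above M12 by 0.68 there. From M12, the proximal stretches differed by −1.31 (ratio) and −1.15 (Cy5) for M12.52 and by −1.36 and −0.95 for M12.50. The distal stretches differed by −0.80 and −0.29 for M12.50 and by −0.92 and −0.31 for M12.49, so less of their size was seen in Cy5. No such stretch was found for M12.53. These stretches were selected for being lower, so their sizes carry no test.

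The number of ratio difference segments that Cy5 also showed varied between the secondary tumours. A mean Cy5 difference of at least 0.25 in the same direction was found over 7 of the 10 ratio segments of M12.49, 2 of 27 for M12.50, 3 of 6 for M12.52 and 0 of 2 for M12.53. For M12.49 these included dim segments on chromosomes 3 and 4, and for M12.52 dim segments on chromosome 4. In the dim segments at most 50.5% of the Cy5 spots of the secondary array were well above background. The counts thus do not give a number of changes in tumour DNA. Segmented on its own, Cy5 gave 18 segments for M12.49, 14 for M12.50, 8 for M12.52 and 28 for M12.53, and its ends need not match those of the ratio. By ratio, 0.0878% of the autosomal probes were in segments lower than M12 for M12.49, 2.52% for M12.50, 0.0665% for M12.52 and 0.122% for M12.53. The corresponding shares for segments higher than M12 were 0.0624%, 0.832%, 0.0624% and 0.00814%. By Cy5 the lower shares were 3.0%, 0.00813%, 1.18% and 0%, and the higher shares were 1.18%, 0.534%, 0.00317% and 0.815%.

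A further mark shared by parent and descendants appeared at the level of single probes. Of 220404 autosomal probes measured on all 5 arrays, 91 (0.0413%) were at −1 or lower on every array by both ratio and Cy5, and 88 of these lay inside the called losses. The other 3 all lay on chromosome 13, within 142 kb of each other. The probe at chr13:19281464-19281523 (mm9) measured −3.92 for M12, −4.79 for M12.49, −5.00 for M12.50, −4.30 for M12.52 and −3.65 for M12.53. M7, M9 and M10 measured −0.33, −0.72 and −0.06 at the same probe. Its Cy5 signal was not well above background on any of the 5 lineage arrays, so its depth is not exact, and its Cy3 signal was well above background on all 5.

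The second of these probes, chr13:19297883-19297942, lay 16.4 kb further and measured −1.77 for M12, −2.51 for M12.49, −2.28 for M12.50, −3.15 for M12.52 and −1.51 for M12.53. Outside the lineage it measured −0.24 for M7, −0.36 for M9 and 0.01 for M10. Of the 5 lineage arrays only M12.52 had a Cy5 signal not well above background there. The probe at chr13:19423745-19423800 measured −2.79 for M12, −3.67 for M12.49, −3.83 for M12.50, −4.01 for M12.52 and −2.98 for M12.53, against 0.26 for M7, −0.55 for M9 and −0.21 for M10. The Cy3 signal of M7 was not well above background at the first and the last of these probes, so its ratios there are not measured. Its Cy5 relative to M10 was −2.01 and −2.14 there, low but above the lineage, which lay between −4.92 and −4.40 and between −4.06 and −3.24. M9 and M10 did not overlap the lineage at any of the 3 probes by ratio. The probes were selected for being low on all 5 lineage arrays, with M10 as the Cy5 baseline. Their sharing within the lineage and the distance to M10 thus carry no test.

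The 9 probes between the second and the last low probe had lineage means of −0.20 to 0.19, so the dips were separate. The probe 6.7 kb before the first dip was also lowered, to between −0.81 and −0.66 on all 5 lineage arrays, and measured 0.56 for M7, −0.03 for M9 and 0.13 for M10. No segment was called here on any of the 5 arrays, since none of the dips spans the 5 probes that a call requires.

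Parent and descendants were also compared for probes low on one side alone. With M12 required to lie above −0.5, 0 probes were at −1 or lower in all 4 secondary arrays by both ratio and Cy5, and 0 probes were at 1 or higher in all 5 tumours. Conversely, 21 of the 220404 probes were at −1 or lower in M12 by both measures with all 4 secondary ratios above −0.5. Among these were 14 pairs of neighbours. The secondary Cy5 was not part of this rule, so the tumour DNA need not be higher in the descendants at these probes. In the chromosome 3 call of M12 below, the ratios differed in this way while Cy5 relative to M10 was low in all 5 tumours. Across the autosomes limma tested 22135 windows of 10 probes between the secondary tumours and M12, with the lone M12 array assumed to vary like the secondary arrays. It called 1 window (0.00452%) as higher and 0 (0%) as lower in the secondary tumours, with 642 windows at an unadjusted p under 0.05. By Cy5 alone limma called 0 windows, 2932 having an unadjusted p below 0.05, and by Cy3 alone it called 1. The ratio gave 0 called windows without M12.50, 2 without M12.49 and 3 without M12.52 or without M12.53, and 1001 (1000 of them lower) with the normexp signals.

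The called window, chr3:44039236-44247052 (mm9), measured −2.06 for M12 and 0.85 in the secondary tumours, a difference of 2.91 ± 0.27 (SE, limma adjusted p = 0.0378). In Cy3 alone the same window differed by −2.98 ± 0.19 (SE, limma adjusted p = 0.0379). It covers the start of the chromosome 3 call of M12, chr3:44131436-44516704 (18 probes, 385 kb). There the ratio was −3.40 ± 0.12 (SE) for M12, 1.97 ± 0.25 for M12.49, 0.69 ± 0.14 for M12.50, 1.66 ± 0.27 for M12.52 and 0.44 ± 0.19 for M12.53, so the parent was negative and all descendants positive.

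The dyes taken apart gave another order on chromosome 3. Cy5 relative to M10 was −3.35 ± 0.15 (SE) for M12, −2.98 ± 0.17 for M12.49, −4.34 ± 0.19 for M12.50, −3.27 ± 0.18 for M12.52 and −3.46 ± 0.19 for M12.53. M7 and M9 measured −0.61 ± 0.27 and −0.07 ± 0.08, so Cy5 separated the 5 lineage tumours from the other mice at these probes. The ratios of the other mice were 1.73 ± 0.18 for M7, 4.32 ± 0.34 for M9 and 5.12 ± 0.29 for M10, over a reference well above background at 5.56% to 11.1% of the probes. A low lineage and a high signal in the other mice cannot be told apart here. Cy5 was well above background at 83.3% of the 18 probes in M12 and at 11.1% to 61.1% in the secondary arrays, so these depths are not exact. Cy3 relative to M10 was 5.20 ± 0.24 for M12 and 0.09 to 1.21 in the secondary arrays. The reference was well above background at 100% of these probes on the M12 array and at 5.56% to 16.7% on the secondary arrays. The change of sign between parent and descendants thus lay in the reference dye, and by Cy5 the difference from M12 was −0.13 ± 0.60 (SD, n = 4; exact permutation p = 0.8, two-sided).

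The remaining call of M12 was a shallow gain on chromosome 10, chr10:79059568-81052572 (407 probes, 1993 kb). The ratio was 0.26 ± 0.01 (SE) for M12, 0.02 ± 0.01 for M12.49, −0.12 ± 0.01 for M12.50, 0.11 ± 0.02 for M12.52 and 0.37 ± 0.02 for M12.53. Only M12.53 lay above its parent. Its own call had other ends, chr10:78482731-80764528 (398 probes, 2282 kb), and measured 0.48 ± 0.02. It counted as kept because it covered 86.2% of the probes of the M12 call. By Cy5 the order was the same at the top, with 0.65 ± 0.01 for M12.53, 0.17 ± 0.02 for M12, −0.04 ± 0.01 for M12.50, −0.19 ± 0.02 for M12.52 and −0.24 ± 0.02 for M12.49. Within the lineage Cy3 was also highest in M12.53, at 0.22 ± 0.03, against −0.11 ± 0.02 for M12 and −0.33 to 0.04 in the other secondary arrays. Outside the lineage the ratio was 0.04 ± 0.03 for M7, −0.15 ± 0.01 for M9 and −0.04 ± 0.01 for M10. M7 measured 0.39 ± 0.06 by Cy5 and 0.22 ± 0.06 by Cy3, with 73.33% of its reference spots well above background. M9, of the same scan as M12.49 and M12.52, measured −0.41 ± 0.03 by Cy5 and −0.29 ± 0.03 by Cy3. From M12, M12.53 differed by 0.50 in Cy5, by 0.43 in Cy3 and by 0.11 by ratio. Ratio and dyes were centred separately, so these differences need not add up. The M12 value lay at the call threshold and far from the 0.58 that 3 copies throughout a pure tumour would give. In the Cy5 difference profiles M12.49 and M12.52 also had lower segments on chromosomes 8, 9, 11 and 17, with means of −0.34 to −0.26. By ratio M12.50 had lower segments on the same chromosomes, with means of −0.30 to −0.25. The chromosome 10 shift thus did not stand alone in these 3 arrays. The part of such genome-wide shifts in the chromosome 10 values was not tested.

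New calls, present in a secondary tumour and not in M12, numbered 6 for M12.49, 1 for M12.50, 2 for M12.52 and 0 for M12.53, a mean of 2.25 ± 2.63 (SD, n = 4) and of 1 without M12.49. A new loss on chromosome 6 was called in M12.49. At chr6:8333534-8458778 (mm9, 19 probes, 125 kb) M12.49 measured −1.09 ± 0.05 (SE), with every probe between −1.39 and −0.71. M12 measured 0.02 ± 0.04, M12.50 0.07 ± 0.05, M12.52 −0.20 ± 0.09 and M12.53 −0.02 ± 0.07. M12.49 was lower than the other 4 lineage arrays, at the level of 1 lost copy, with tumour DNA at 46.9% of the reference. By Cy5 it was −1.16 ± 0.06, against −0.30 to 0.00 in the other 4 tumours, and 100% of the spots in both dyes were well above background on all 5 arrays. With the normexp signals the difference from M12 was −0.28 in place of −1.12. M12.52 was slightly low by ratio and by Cy5 at the same probes, with 57.9% of them under −0.25 by ratio. That share was 26.3% for M12.53 and 0% for M12 and M12.50. The share over all probes of M12.52, the noisiest array, was not counted, and its flanking probes averaged −0.07. Nothing can be read from the lack of a call there, since no simulated loss of 1 copy over this many probes was called at the noise of this array.

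A short loss on chromosome 12, chr12:114670169-114719029 (mm9, 6 probes, 49 kb), was called in M12.49 over these 6 probes and in M12.50 over the first 5. The ratio over the 6 probes was −0.06 ± 0.19 (SE) for M12, −2.07 ± 0.41 for M12.49, −1.68 ± 0.50 for M12.50, −1.49 ± 0.40 for M12.52 and −0.28 ± 0.23 for M12.53. By ratio, 3 descendants were low, while M12 and M12.53 lay near 0. By Cy5 relative to M10 the values were −0.86 ± 0.26 for M12, −1.99 ± 0.40, −1.44 ± 0.47 and −1.26 ± 0.48 in those 3, and −0.09 ± 0.21 for M12.53. M12 was thus intermediate by tumour dye and M12.53 near 0, and the Cy3 of M12 was −1.05 ± 0.20 against −0.18 to −0.03 in the secondary arrays.

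The probes of the short chromosome 12 loss were uneven. The probe at chr12:114683474-114683532 measured −0.66 for M12, −3.25 for M12.49, −3.47 for M12.50, −3.15 for M12.52 and −0.69 for M12.53. By Cy5 the same probe was −1.88, −3.46, −3.15, −3.51 and −0.97 in that order. The last of the 6, chr12:114718970-114719029, measured 0.41, −0.71, −0.16, −0.33 and 0.15. The Cy5 spots were well above background at 50% of the 6 probes in M12.49 and M12.52 and at 83.3% for M12.50, so the depth in these is not exact. M9, from another mouse, measured −1.03 ± 0.12 (SE) at these 6 probes, so low values there were not limited to the mouse 12 lineage.

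**Figure D4:**
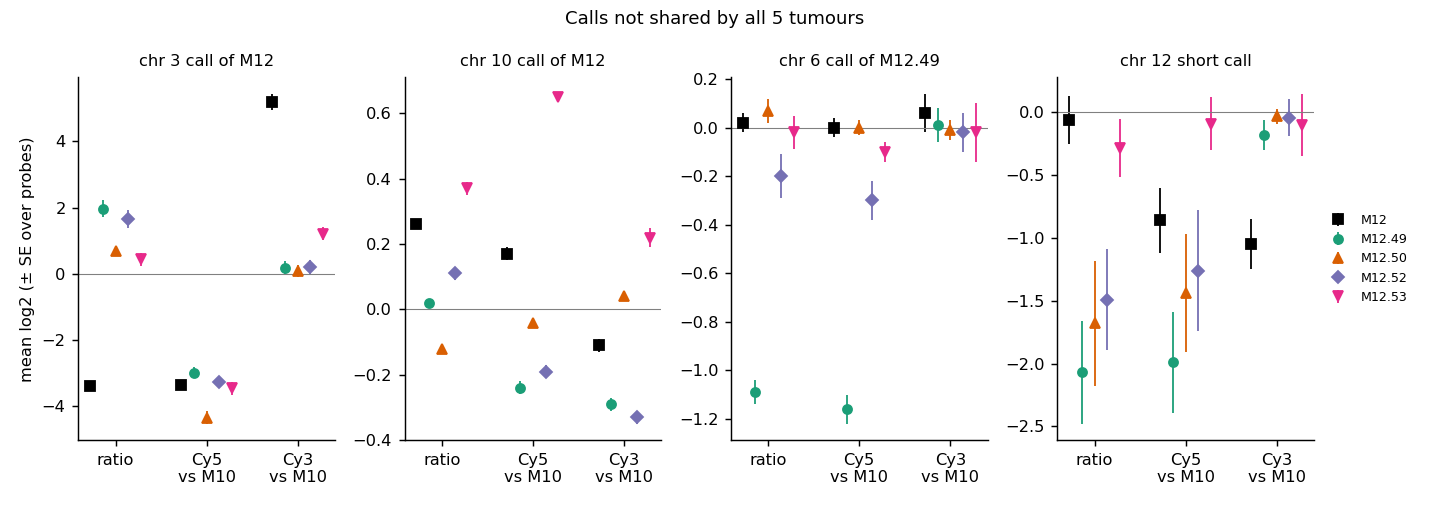
Mean log2 value (± SE over probes) of 4 calls not shared by all 5 tumours, as the ratio and as each dye alone relative to M10. The chromosome 3 call of M12 is low in Cy5 relative to M10 in every tumour (−4.34 to −2.98) and differs in Cy3, the chromosome 6 call is low in M12.49 in both the ratio (−1.09) and Cy5 (−1.16), and the short chromosome 12 call is low in Cy5 for M12 (−0.86) as well as in 3 descendants.

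The other new calls were gains in regions of dim reference. On chromosome 4, chr4:111764589-113944617 (121 probes, 2180 kb) measured 0.07 ± 0.03 (SE) for M12, 0.50 ± 0.06 for M12.49, 0.13 ± 0.03 for M12.50, 0.53 ± 0.06 for M12.52 and −0.11 ± 0.04 for M12.53. Only M12.49 and M12.52 were called there. They shared a scan date with M9, which measured 0.63 ± 0.06, while M12.50 and M12.53 shared another scan date with M10, at 0.04 ± 0.04. Scan date and tumour cannot be told apart in this value, and 43% to 68.6% of the reference spots of the 5 arrays were well above background. Cy5 relative to M10 was highest in M12.53, at 0.55 ± 0.07, which the ratio put lowest. The remaining new calls of M12.49 and M12.52 lay in the chromosome 3 region with its dim secondary reference. A difference segment of M12.49, chr4:121702754-121777257 (6 probes, 75 kb), lay above M12 by 0.97 by ratio and 1.54 by Cy5. The ratio was 0.24 for M12, 1.21 for M12.49, −0.28 for M12.50, 1.26 for M12.52 and −0.27 for M12.53. Only 16.7% of the M12.49 spots in either dye and 0% of the M12 reference spots were well above background, so no level can be read there.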

How the data were processed

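Genomic DNA of 8 tumours was measured on 2-colour Agilent arrays. The deposited files hold processed intensities of both dyes, which, per the file headers, Feature Extraction 10.5.1.1 background-subtracted and dye-normalised (version 9.1.1 per the submitters' processing notes). The deposited log10 ratio equals the series table. Log2(Cy5/Cy3) of non-control spots without outlier flags was averaged per probe and centred on the autosomal median. M12, deposited on mm8, took mm9 positions by probe name.

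Values were winsorised (3 SD, running median of 11 probes) and segmented by penalised least squares (penalty of 6 noise variances multiplied by the natural log of the number of probes, 3 probes or more per segment, segments closer than 0.15 merged). A call of M12 counted as kept at 50% coverage. Windows were fitted in limma 3.58.1 (R 4.3.3) at an adjusted p under 0.05. Other tools were Python 3.11.15 with scipy 1.17.1, pandas 2.3.3, numba 0.67.0, numpy 2.4.6 and matplotlib 3.10.9. Named were all calls of M12, new calls (every one of 1 Mb or more and the 5 largest others per array), called windows with M12 outside the secondary range, and up to 5 ratio difference segments per array whose mean Cy5 difference also passed 0.25.

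Segmentation and the limma fit were tested on simulated data with known changes. Normexp ran on median spot signals, in place of the planned means, because the files hold medians. The members and lists were chosen with earlier results of these data known. Flank subtraction, Cy3 alone and the scan of low probes were chosen after seeing the data. The planned list of T-cell genes was not used, for want of an mm9 annotation.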

Additional observations from a re-analysis of the deposited data

How the results depend on the processing

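No paired analysis was possible because the replicate numbers only name the secondary tumours. The cause of each change below was not tested. The mean share of kept M12 calls (75% of 7 calls) was 41.7% of 3 calls with normexp signals, 87.5% of 6 with bright reference probes, 65.6% of 8 at a call threshold of 0.15 and 83.3% of 6 at 0.4, and 71.4% to 76.2% without 1 secondary tumour. The mean number of new calls (2.25) was 0.75 with bright reference probes, 5.25 and 0.75 at penalties of 3 and 12 times, and 1 without M12.49 to 3 without M12.53. The difference from M12 on chromosome 6 (−0.34) was −0.13 with normexp signals, −0.02 by Cy5 and −0.08 by Cy5 with flanks subtracted, and −0.36 to −0.31 without 1 tumour. On chromosome 12 (−0.15) it was −0.03 with flanks subtracted, and −0.18 to −0.11 without 1 tumour. On chromosome 14 (−0.40) it was −0.04 with normexp signals, −0.04 by Cy5 and 0.02 by Cy5 with flanks subtracted, and −0.51 to −0.30 without 1 tumour.

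Difference segments averaged 11.25 per tumour. They averaged 4 with normexp signals, 30 and 4.25 at thresholds of 0.15 and 0.4, 20.5 and 5.25 at penalties of 3 and 12 times, 17 by Cy5, and 6 without M12.50 to 14.33 without M12.53. Limma's 1 called window became 1001 with normexp signals (1 higher, 1000 lower), 0 with bright reference probes, by Cy5, with windows of 5 probes and with all 8 arrays, 2 with scan as a random block, and 0 without M12.50 to 3 without M12.52 or M12.53. With array weights it was 16368, but the weights did not converge. Slide as a random block gave no estimate and was not run. Of 176 alternative values of single regions, 119 moved by less than 2 SE and 14 changed sign, 7 of them from a difference under 0.25 in size. On chromosome 3, Cy5 gave −0.98 in M12.50 and −0.10 in M12.53 in place of positive differences. With normexp signals M12.49 was above M12 by 0.68, 0.81, 0.66 and 0.78 in the 4 chromosome 14 stretches, and by Cy5 M12.53 was above by 0.18 in the stretch of M12.49. Dim Cy5 spots limit all chromosome 14 depths.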
